A study of Rattus norvegicus with 6 samples.

Results

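The 39 rows described here are miRNAs predicted by the authors of the count table and found inside fibroblasts of rat sciatic nerve. They were selected on measured values, out of 519 predicted rows and 1071 rows in all. A predicted row was taken if it had at least 30 counts summed over the 3 Intracellular libraries and if its pooled level in vesicles stayed under 10 times its pooled level in the cells. A pooled level is the summed counts of a group scaled to 1000000 summed counts of its libraries (CPM). Of the 519 predicted rows, 478 had fewer than 30 Intracellular counts, 134 of them with 0. The 2 remaining rows, novel540_mature and novel199_mature, reached 30 counts but were 10-fold or more higher in vesicles.

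Both groups came from wild-type, untreated rat fibroblasts of the sciatic nerve, in 1 batch. Small RNA of their extracellular vesicles (EV, 3 libraries) was compared with small RNA from inside the cells (Intracellular, 3 libraries), the controls of the design. The labels name no strain or age and do not say whether replicates were separate cultures, so the spread between libraries may be technical.

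A miRNA is cut from a hairpin in its primary transcript, first by Drosha in the nucleus and then by Dicer in the cytoplasm. The resulting duplex has 2 strands, one of which is usually kept by an Argonaute protein and called mature, while the other, called star, is mostly lost. Bases 2 to 8 of the kept strand, the seed, pair with target mRNAs. Programs that predict miRNAs from sequencing look for reads that stack on an arm, or on both arms, of a genomic sequence able to fold into such a hairpin. Counts of a star strand bear on how a predicted row is read.

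Deposited sequences were at hand for 11 of the 39 members. They are shown because the rows are otherwise known by number alone, in the order of their Intracellular level, with the seed in capitals.
novel2_mature: tGCGGGGCtagggctaacagc
novel10_mature: tGTGTTTTgtgtatgtacatgt
novel95_star: gTTTGGGAgcagtgagctgcg
novel17_mature: gTACAGAGcacatgtttgaggg
novel23_mature: aAGCCAACtctccagatctg
novel29_mature: cCAGGTCCactctgctgagcact
novel412_star: cTTGGCAGtcgtctcactcaac
novel276_mature: gGTGCCAAagactgtgtggaggc
novel18_mature: cACAGTCTagtggccttggaagc
novel32_mature: cGGACCATgtgaaccagagtgc
novel174_mature: tGGGGTGTgctcagagcagaggg

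The 11 seeds were all distinct. None of the 11 was the seed of any of the 552 known rows of the table or of the 724 mature rat miRNAs of RefSeq (build GRCr8), and none of the 11 sequences lay whole, on either strand, within the 419 RefSeq hairpins searched. Lengths ran from 20 to 23 bases, with 10 of the 11 at 21 to 23, as for 93.3% of the 359 known rows with at least 30 Intracellular counts. The first base was T in 3, C in 4, G in 3 and A in 1. T opened 40.4% of those known rows. GC content had a median of 59.1% (31.8% to 66.7%) in the 11 sequences and of 47.6% in the known rows. The 21 letters of novel2_mature are, as background, those with which the slightly longer miR-744-5p of human and mouse begins. No known row and no RefSeq entry searched bore that name. The seed of novel2_mature was shared by 2 other predicted rows, novel229_mature and novel538_mature, with 11 and 2 Intracellular counts. That of novel174_mature was shared by novel373_mature and novel381_mature, with 3 and 1.

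The libraries held 81211 to 105578 counts in EV and 1839047 to 8859302 in Intracellular samples. One count therefore stood for 9.47 to 12.3 CPM in an EV library and for 0.113 to 0.544 CPM in an Intracellular one. As a check of the labelled cell type, the summed level of 7 miRNAs typical of fibroblasts and mesenchymal cells, such as miR-143-3p and miR-199a-3p, was 436000 to 461000 CPM in EV and 474000 to 496000 CPM in Intracellular libraries. Among markers of other cells, the 3 erythroid miRNAs summed to 152 to 222 CPM in EV and 2.26 to 5.98 CPM in Intracellular libraries, the 5 leukocyte miRNAs to 217 to 265 and 63.6 to 170, and the 2 endothelial ones to 260 to 436 and 141 to 390. The liver marker miR-122-5p stood at 11200 to 13700 CPM in EV and 118 to 345 CPM in Intracellular libraries, and the 3 muscle miRNAs at 49.3 to 152 and 9.06 to 12.6 CPM. The 2 neuronal miRNAs in the table summed to 2160 to 2580 and 1580 to 3280 CPM, the 2 of myelinating glia to 0 to 47.4 and 8.16 to 20.1 CPM, and the 4 epithelial ones to 0 and 1.09 to 1.81 CPM. The part of other cells in the levels below was not tested.

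Inside the cells, the 39 members together took 0.127% ± 0.0342 of counts (SD, n = 3), or 0.0886%, 0.153% and 0.141% of Intracellular replicates 1, 2 and 3. In EV they took 0.178% ± 0.0158 (SD, n = 3), or 0.167%, 0.196% and 0.170% of replicates 1, 2 and 3. These values were used to choose the members and are a description. The 39 rows held 89.8% of all predicted counts of the pooled Intracellular libraries and 12.9% of those in EV. Most predicted counts in EV thus lay outside the members, with novel540_mature alone at 0.348% to 0.804% of an EV library. In such pooled RNA, fewer cells that make a miRNA and less of it in each cell cannot be told apart.

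The members were low in level. Their pooled Intracellular CPM ran from 2.21 to 514 with a median of 6.49, while the 359 known rows with at least 30 counts had a median of 53.5. Of the 39, 2 were above 100 CPM, 14 between 10 and 100 and 23 below 10. Adapter ligation favours some sequences, so levels of different miRNAs compare only roughly. All but novel371_mature and novel28_mature had counts in all 3 Intracellular libraries, and both of these had 0 in replicate 1, the shallowest of the 3.

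**Figure D1:**
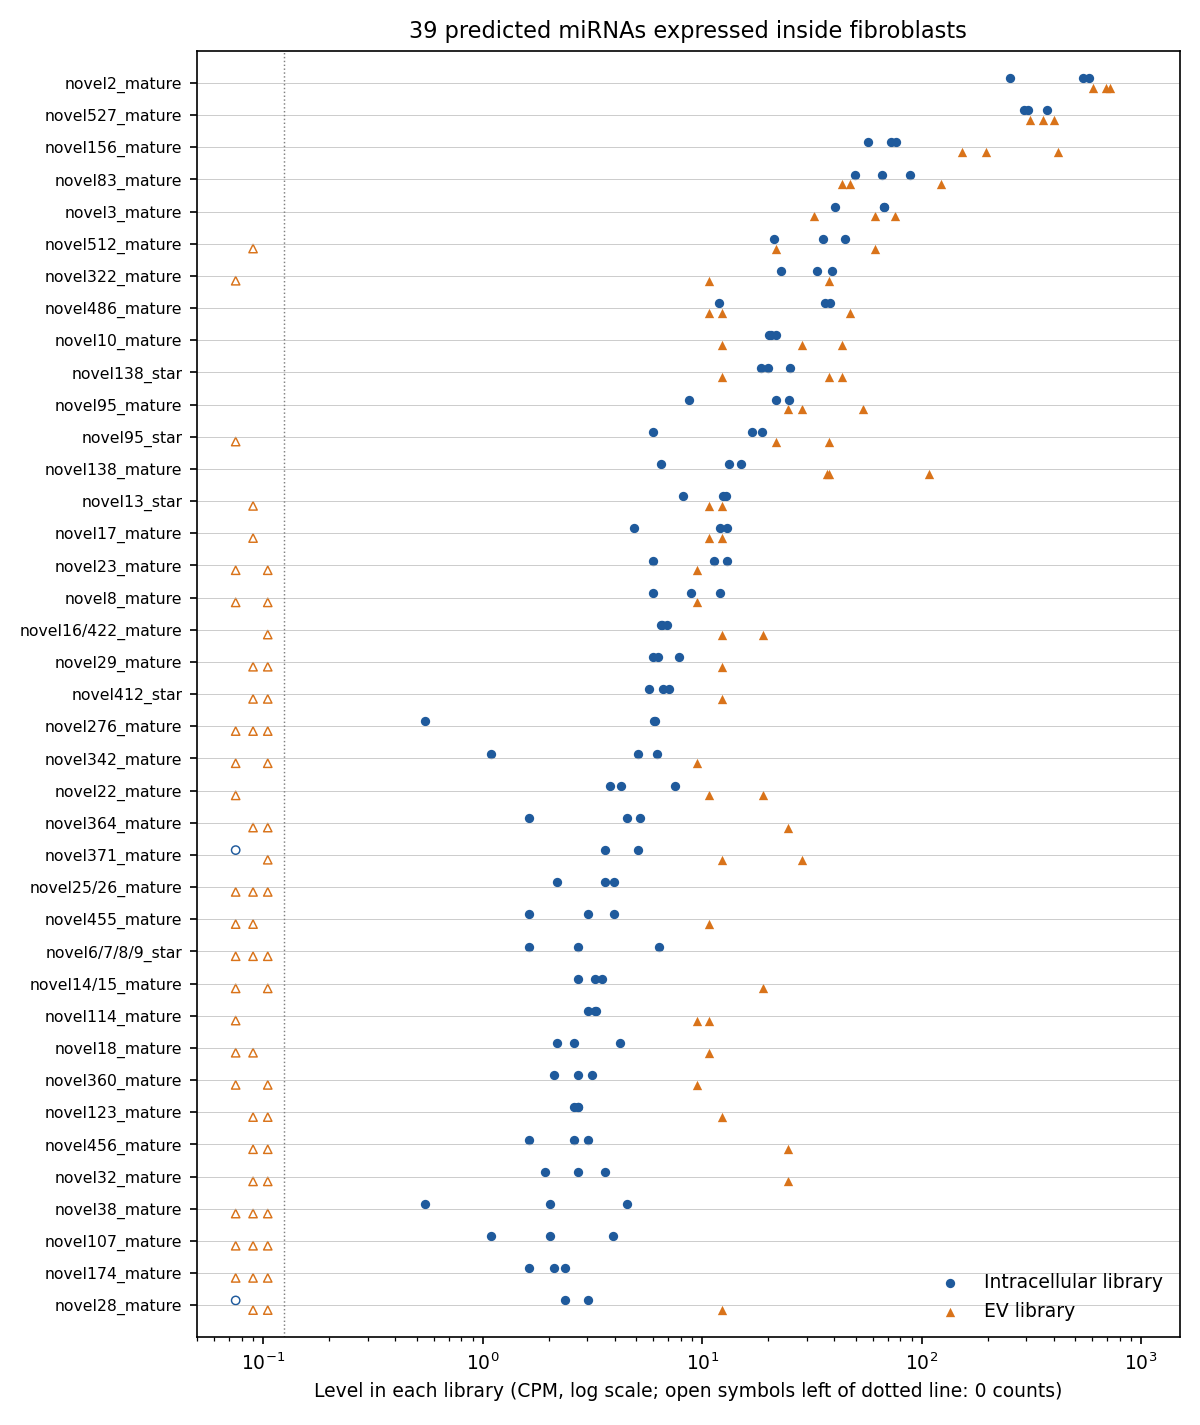
CPM of each of the 39 members (rows, ordered by pooled Intracellular level) in the 3 Intracellular libraries (circles) and the 3 EV libraries (triangles), on a log axis, with 0 counts as open symbols left of the dotted line. The members novel2_mature and novel527_mature, exceed 100 CPM in each of the 6 libraries, and members below 10 CPM inside cells have 0 to 3 counts in each EV library, up to 28.4 CPM.

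novel2_mature led the members. It was at 252, 577 and 545 CPM in Intracellular replicates 1, 2 and 3 (458 ± 179, SD, n = 3) and at 603, 720 and 693 CPM in EV replicates 1, 2 and 3 (672 ± 61, SD, n = 3). Every EV library was above every Intracellular one. Intracellular replicate 1 was the low one of its group, as for most known rows compared below. Its log2 difference in CPM from the mean of replicates 2 and 3 was -1.16. With 7199 Intracellular counts novel2_mature ranked 74th of 1071 rows, behind 73 known miRNAs. It held 37.6% of the members' Intracellular counts and 37.8% of their EV counts.

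novel527_mature came next, at 293, 371 and 305 CPM in Intracellular replicates 1, 2 and 3 and at 357, 313 and 401 CPM in EV. The 2 groups overlapped, and their means of 323 ± 42.1 and 357 ± 44.1 CPM (SD, n = 3) differed by less than the spread between libraries. It ranked 101st, with 99 known rows above it. Together with novel2_mature it made up 60.9% of the members' counts inside cells and 57.6% in EV.

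The third, novel156_mature, stood at 57.1, 72.4 and 76.8 CPM in Intracellular replicates 1, 2 and 3 (68.8 ± 10.3, SD, n = 3). In EV it was at 197, 417 and 152 CPM (255 ± 142, SD, n = 3). All 3 EV values were above all 3 Intracellular ones, with EV replicate 2 far above the other 2. The count table had no star row of this precursor.

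novel83_mature was at 49.5, 88.4 and 66.3 CPM inside cells and at 123, 47.4 and 43.3 CPM in EV. novel3_mature was at 40.2, 67.3 and 67.2 CPM inside cells and at 61.6, 75.8 and 32.5 CPM in EV. In both, the groups overlapped, and their pooled EV levels were 0.982 and 0.900 of the Intracellular ones. The known rows above them numbered 171 and 174.

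From about 40 CPM downward, an EV value rested on a handful of counts. novel512_mature was at 21.2, 35.6 and 44.8 CPM inside cells and had 5, 0 and 2 EV counts. novel322_mature was at 22.8, 33.5 and 39.1 CPM inside cells, with 0, 4 and 1 EV counts. novel486_mature was at 12, 36.2 and 38.2 CPM inside cells, with 1, 5 and 1 EV counts. In these 3 the EV level was the lower one, at 0.634, 0.503 and 0.732 of the Intracellular level, but 95% exact intervals of the ratio (0.254 to 1.32, 0.163 to 1.18 and 0.293 to 1.52) held 1. These intervals cover counting error alone, and reads without molecular identifiers are not independent molecules.

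novel10_mature was the steadiest of the better counted members, at 20.1, 20.5 and 21.8 CPM in Intracellular replicates 1, 2 and 3. In EV it had 1, 3 and 4 counts, 12.3 to 43.3 CPM, on both sides of the Intracellular values. The precursors novel138 and novel95, at similar levels, had both strands among the members and are described with the star rows.

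Intracellular replicate 1 stood apart in CPM, for known rows as for these. All 16 members with at least 150 Intracellular counts had their lowest Intracellular CPM in that library, with a median log2 difference of -0.83 from the mean of replicates 2 and 3. Replicates 2 and 3 differed by a median of 0.04. The same held for known rows of the same range, of which 92.6% of 189 were lowest in replicate 1, with a median of -0.91. In the TMM scaling of the fit below, replicate 1 had a factor of 0.557, against 0.964 and 0.935 for replicates 2 and 3. CPM carry no such scaling, so a shift of the whole library is part of these log2 differences. Among the 16, novel486_mature (-1.64), novel95_star (-1.57) and novel95_mature (-1.41) were lowest in replicate 1 relative to the others. In CPM, novel10_mature (-0.07) and novel527_mature (-0.21) hardly moved. The coefficient of variation between Intracellular libraries had a median of 31.9% in the 16 members (4.17% to 50.7%) and of 33.6% in those known rows. Without replicate 1 the members took 0.147% of Intracellular counts, and 37 rows met the rule.

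**Figure D2:**
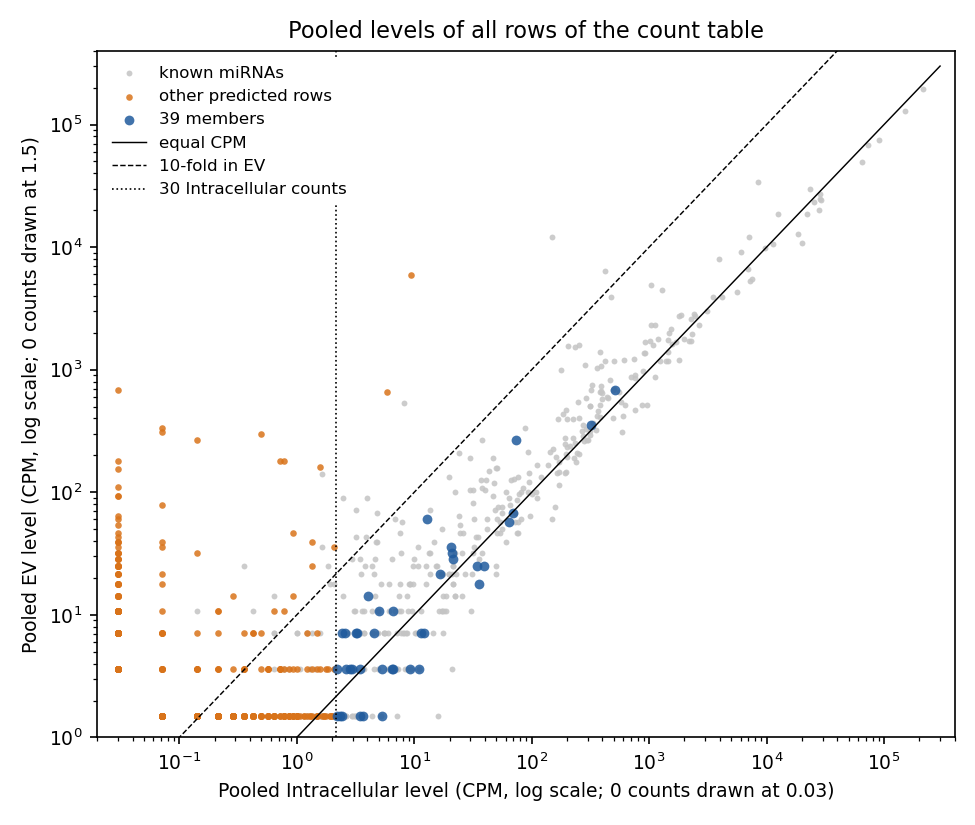
Pooled EV CPM against pooled Intracellular CPM for every row of the count table on log axes, with known miRNAs in grey, the 39 members in blue and other predicted rows in orange. Members lie along the line of equal CPM, with known miRNAs of the same level, while 2 orange points right of the 30-count line lie above the dashed 10-fold line.

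Both limits of the rule can be read from the rows beside them. At the limit of 30 counts, novel174_mature and novel28_mature (31 counts each) and novel107_mature (33) were just inside, and the joined row of novel6, novel7 and novel9 mature (29 counts), novel306_mature (28) and novel326_mature (28) just outside. At the limit on the ratio there was a gap. The highest members were novel138_mature at 4.74, novel156_mature at 3.62 and novel371_mature at 3.52 times the Intracellular level. The rows beyond it were novel199_mature at 113 and novel540_mature at 629 times, so that limits of 5 or 20 in place of 10 gave the same number of 39.

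EV held counts of 33 of the 39 members. Counts were found in all 3 EV libraries for 10 members, in 2 libraries for 9, in 1 library for 14 and in 0 for 6. All 3 EV libraries thus held 25.6% of the members and 69.2% of the 400 rows of the table with at least 30 Intracellular counts, most of which are known miRNAs of higher level, and 15.4% and 5.5% were at 0. The 10 were novel2_mature, novel527_mature, novel156_mature, novel83_mature, novel3_mature, novel486_mature, novel10_mature, novel138_star, novel95_mature and novel138_mature. The last 2 of these in level, novel95_mature and novel138_mature, had 10 and 17 EV counts.

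Presence in EV was set against what the depth could show. At its Intracellular level each member would give a certain number of counts in the 279118 pooled EV counts. For 16 members that number was 3 or more (3.07 to 143), and all 16 had an EV count, 471 counts in all against 356 at equal levels (95% exact Poisson interval of the 471 counts, 429 to 516). The excess lay in 3 of them, novel2_mature, novel156_mature and novel138_mature, with 280 counts against 167. The other 13 had 191 counts (165 to 220) against 189. The 3 were set apart on these same counts, so the near equality of the rest is a description only. Equal levels here are equal CPM. With the TMM scaling of the fit below, novel2_mature had a log2 fold change of -0.02 (SE 0.21). For the other 23 members, the number due at equal levels was 0.618 to 2.59. Of these 23, 17 had an EV count and none had counts in all 3 EV libraries, with 29 counts in all (19.4 to 41.6) against 25.9 at equal levels. Absence of these 23 from an EV library was not informative at this depth.

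The 6 members with 0 EV counts were novel276_mature, novel38_mature, novel107_mature, novel174_mature, the joined row of novel25 and novel26 mature and the joined star row of novel6, novel7, novel8 and novel9. A count of 0 was taken to allow up to 3 pooled counts, or 10.7 CPM, in EV. Their Intracellular levels of 2.21 to 5.35 CPM lie under that bound, so a lower level in EV was not detectable. The highest of them, novel276_mature, had 1, 20 and 54 Intracellular counts, or 0.544, 6.04 and 6.10 CPM in replicates 1, 2 and 3.

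**Figure D3:**
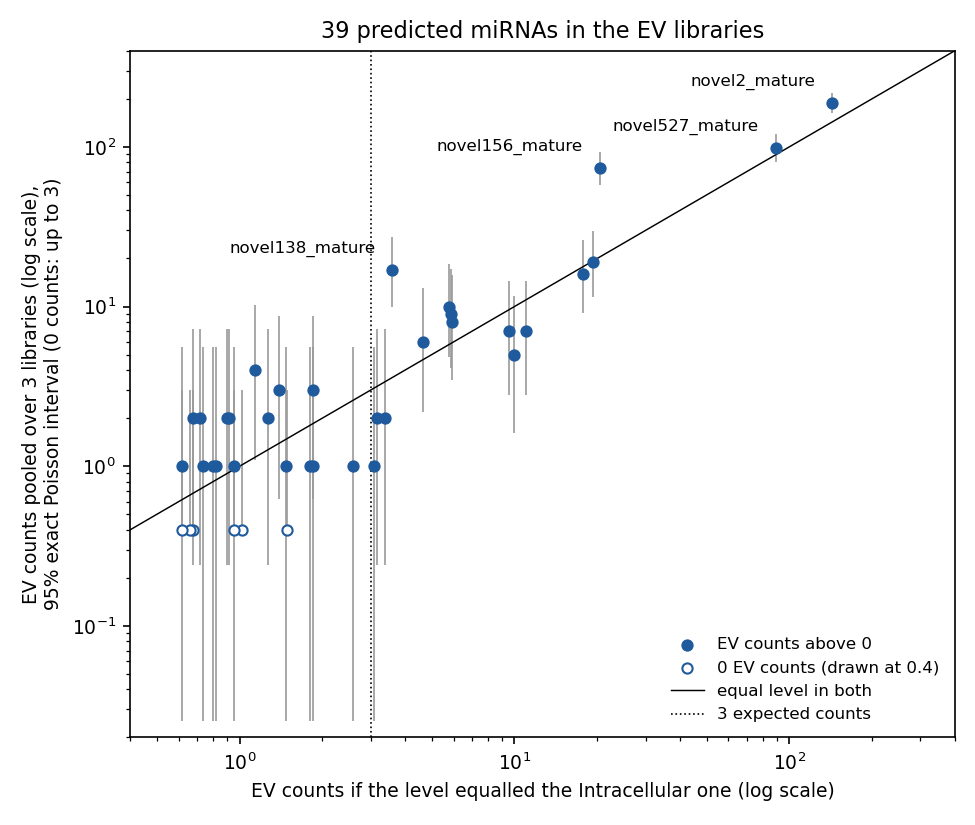
Pooled EV counts of each member with 95% exact Poisson intervals against the counts that its pooled Intracellular level would give at the EV depth, on log axes, with 0 counts as open circles. Bars at 0 counts reach 3 counts. Right of the dotted line, the intervals of novel2_mature (189 counts against 143), novel156_mature (74 against 20.4) and novel138_mature (17 against 3.59) lie above the line of equal level, and those of the other 13 members cross it.

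Over all 39 members, the median ratio of pooled EV to Intracellular CPM was 1.11 with rows at 0 ranked lowest, against 1.23 over all 400 rows of the table with at least 30 Intracellular counts. With rows at 0 set to their bound of 3 pooled counts, the median log2 ratio was 0.44, against 0.40 over the 400 rows. The ratio was above 1 in 21 members and below 1 in 12 others with an EV count. In members due under 1 EV count at equal levels, such as novel28_mature (0.618) and novel455_mature (0.956), any EV count put it above 1. No share over the 400 rows was taken, so nothing is read from this split. The 95% exact interval of the ratio lay above 1 in 3 members, novel2_mature (1.13 to 1.52), novel156_mature (2.82 to 4.59) and novel138_mature (2.70 to 7.81). It held 1 in the other 36 and lay below 1 in 0. Over the 400 rows it lay above 1 in 34.2% and below 1 in 10%. The rule used this ratio, so nothing is read from these shares. The lowest ratios with an EV count were those of novel23_mature (0.326), novel8_mature (0.386) and novel322_mature (0.503). The first 2 rest on 1 EV count each, both in replicate 2. CPM of the 2 groups did not overlap in 3 members with EV above, against 28.2% of the 400 rows, and in 6 members with EV below, against 8.25% of the 400 rows. The 3 were novel2_mature, novel156_mature and novel138_mature, and the 6 were those with 0 EV counts. In these 6, 1 EV count would have exceeded every Intracellular CPM. EV below thus means only 0 counts, and no lower level is read from it.

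A fit across the whole table (edgeR's quasi-likelihood test, TMM scaling, Benjamini-Hochberg adjusted p under 0.05) gives the same comparison on the log2 scale, EV minus Intracellular. Since the rule used this contrast, its calls on members are a description and carry no support. Of the members, 15 passed the filter on low counts and 24 did not. Among the 15, 2 were called higher in EV, against 25.3% of 328 rows tested, and 0 lower, against 17.1%. The 2 were novel156_mature, with a log2 fold change of 1.27 (SE 0.31), and novel138_mature, with 1.78 (SE 0.55). The call of novel156_mature was lost without EV replicate 2 and that of novel138_mature without EV replicate 3, the libraries in which each was highest. At an unadjusted p under 0.05, 2 were lower, novel322_mature (-1.46, SE 0.67) and novel527_mature (-0.53, SE 0.25). No share over all rows was taken at that limit, so nothing is read from this number. DESeq2 called 0 members lower, against 51 of the 328 rows. Without EV replicate 2, novel322_mature was called lower, 1 of 26 such rows among the 328.

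With total-count scaling the median log2 difference over the 328 rows shifted by 0.62, from -0.07 to 0.55, and that over the 15 members from -0.53 to 0.14. The members' median lay below that of all rows with both scalings, a description of those that passed the filter. novel2_mature had a log2 fold change of -0.02 (SE 0.21) with TMM although all its EV CPM were higher, since CPM carry no such scaling. The same 2 members, novel156_mature and novel138_mature, were called higher with total counts, with RLE scaling and by DESeq2. Of the 328 rows, these settings called 107, 85 and 82 higher.

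Mature and star rows were then compared within precursors. The 39 members belong to 36 precursors, where predicted names that share a row are counted as 1. In 21 of these the table had both a mature and a star row with counts, in the other 15 only 1 form. One of the 15, novel13, was represented by its star row, at 8.16, 12.4 and 12.8 CPM inside cells with 1, 0 and 1 EV counts. For the 2 rows that exceeded the 10-fold limit, novel540_mature and novel199_mature, no star row was in the table.

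The row named mature had more Intracellular counts in 19 of the 21 precursors and the row named star in 2, novel138 and novel412. Taking the lesser over the greater strand with a prior count of 1, the median log2 ratio over the 21 was -3.05 ± 0.76 in Intracellular libraries (SD, n = 3). In 109 known precursors whose greater arm had 31 to 7199 counts, the same range, it was -3.10 ± 0.11. This near equality depended on the prior count, so no likeness of the 2 sets is read from it. The members' value ran from -2.32 in Intracellular replicate 1, the shallowest, to -3.83 in replicate 3, the deepest. With a prior count of 0.25 the medians were -3.76 ± 0.40 in the members and -3.35 ± 0.16 in the known precursors (SD, n = 3). From pooled counts, with no prior count, the medians were -4.41 and -3.30. The lesser strand held 10% or more of a precursor's counts in 7 of the 21 (33.3%) and in 52 of the 109 known ones (47.7%).

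**Figure D4:**
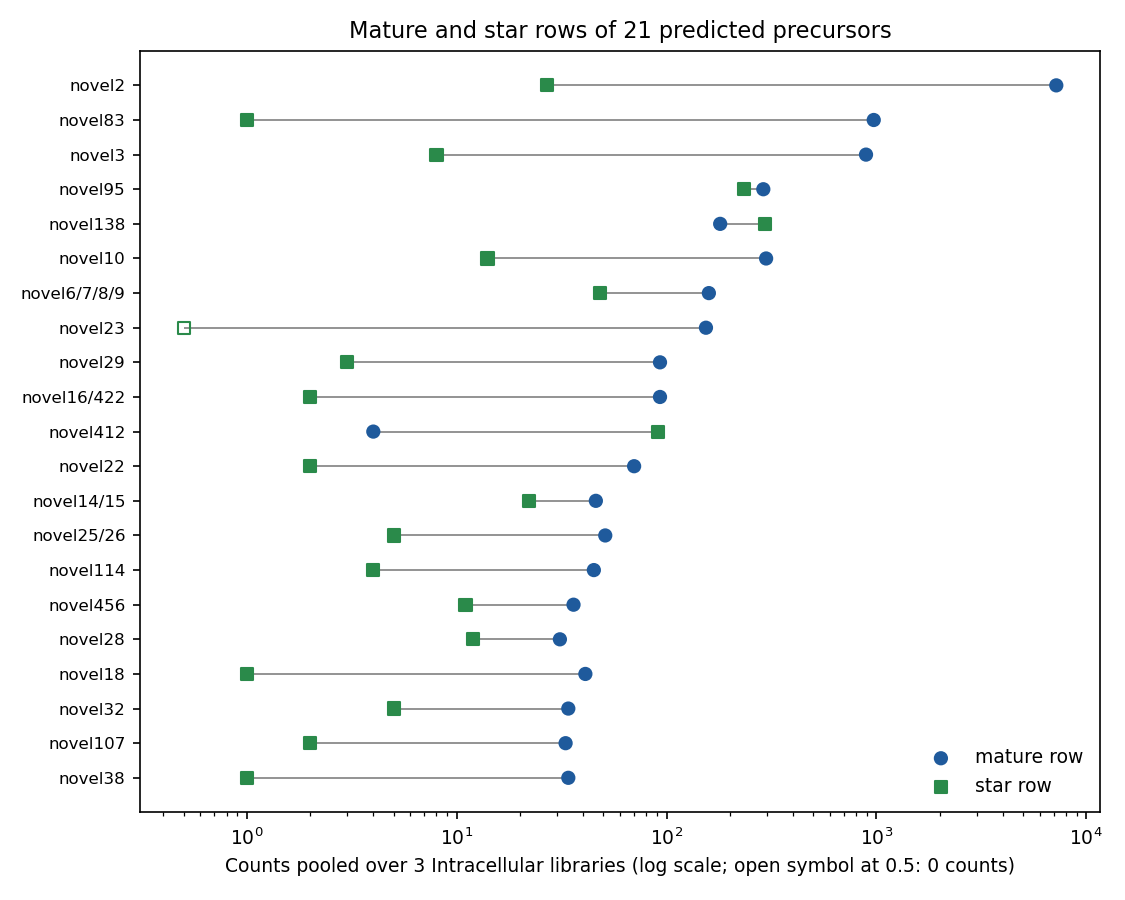
Counts of mature (circles) and star (squares) rows of 21 precursors with a member, pooled over the 3 Intracellular libraries, on a log axis and ordered by the sum of both. The strands differ most in novel83 and novel2 among those with a star count and lie close together in novel95 and novel138, and in novel138 and novel412 the star row lies to the right.

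In 3 precursors both strands were members. novel95 had 16, 82 and 191 mature counts and 11, 56 and 166 star counts in Intracellular replicates 1, 2 and 3. Its star strand, one of the sequences printed above, held 40.7%, 40.6% and 46.5% of them, 44.6% in all (95% exact binomial interval 40.3% to 49.0%). In EV the 2 strands had 2, 3 and 5 and 0, 4 and 2 counts, a star share of 37.5% (15.2% to 64.6%). The strands of novel95 were thus present in near equal numbers inside cells, and EV gave no detectable difference at its depth.

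novel138 had 12, 50 and 118 mature and 34, 83 and 177 star counts in Intracellular replicates 1, 2 and 3. The star share was 73.9%, 62.4% and 60%, or 62.0% pooled (57.5% to 66.4%). In EV the mature row had 3, 4 and 10 counts and the star row 1, 4 and 4, a star share of 25%, 50% and 28.6%, or 34.6% pooled (17.2% to 55.7%). The star shares of the groups did not overlap, and the pooled intervals did not either. This difference was noticed among 21 precursors after the values were seen, rests on 26 EV counts, and was not tested, since the levels that make it up chose the members. In CPM, novel138_star was at 18.5, 25.1 and 20 inside cells and 12.3, 37.9 and 43.3 in EV, while novel138_mature was at 6.53, 15.1 and 13.3 inside cells and 36.9, 37.9 and 108 in EV.

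The names novel6, novel7, novel8 and novel9 share 1 star row, which had 3, 21 and 24 Intracellular counts. Their mature counts, from novel8_mature and the joined row of the other names, summed to 12, 48 and 99. The star share was 23.2% (17.6% to 29.5%). novel8_mature itself was at 5.98, 12.1 and 8.92 CPM inside cells, with 0, 1 and 0 EV counts. How reads were divided among the names is not given in the sources used here, so single names of this set are uncertain.

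The most abundant members with a star row had few star counts. For novel527_mature, novel156_mature, novel512_mature, novel322_mature and novel486_mature, also among the highest in level, the table had no star row. novel2 had 463, 1911 and 4825 mature and 1, 8 and 18 star counts inside cells, a star share of 0.374% (0.246% to 0.543%), and 0 star against 189 mature counts in EV. novel83 had 971 mature counts and 1 star count inside cells, a share of 0.103%. novel3 had 892 and 8, a share of 0.889%, with 1 star count in EV replicate 1. For novel10, 37, 68 and 193 mature counts met 3, 7 and 4 star counts, a share of 4.49% (2.47% to 7.41%). novel23 had 11, 43 and 100 mature counts inside cells and 0 star counts, and its star row was present through 1 count in EV replicate 2.

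In novel412 the names run against the counts. The row named star had 13, 19 and 59 counts in Intracellular replicates 1, 2 and 3 and the row named mature 0, 1 and 3, so that the star share was 95.8% (89.6% to 98.8%). novel412_star was at 7.07, 5.73 and 6.66 CPM inside cells, with 1, 0 and 0 EV counts.

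Among precursors of lower level, novel14 and novel15 shared a mature row of 6, 9 and 31 counts and a star row of 2, 5 and 15 inside cells, a star share of 32.4% (21.5% to 44.8%). Shares of 27.9%, 23.4% and 12.8% were found for novel28 (31 mature and 12 star counts), novel456 (36 and 11) and novel32 (34 and 5). With novel95, novel138, the set of novel6 to novel9 and novel14 with novel15, these make up the 7 precursors with 10% or more in the lesser strand. In EV, novel14 with novel15 had 2 mature and 1 star counts, and novel456 likewise.

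The remaining precursors had star shares under 10%. novel29 had 11, 26 and 56 mature and 0, 0 and 3 star counts inside cells. The joined row of novel16 and novel422 had 12, 23 and 58 mature counts, with 0, 0 and 2 for novel16_star, and 1, 2 and 0 mature counts in EV. novel22 had 7, 25 and 38 mature and 1, 0 and 1 star counts. The rows of novel25 with novel26 had 51 mature and 5 star counts, novel114 had 45 and 4, novel18 had 41 and 1, novel107 had 33 and 2 and novel38 had 34 and 1. These star counts are too few to rank the precursors.

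For 4 precursors both strands had a deposited sequence, which allows the 2 strands to be folded against each other. The second strands are printed, again with bases 2 to 8 in capitals, beside the first strands given above.
novel10_star: aTATACATacacataagcacac
novel29_star: tGCTTTCGgagtgttcctgtgc
novel412_mature: tGAGAAAGcgggtgccgagaa
novel18_star: aGCCATGGtcagtggactggatg

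In the duplex predicted with RNAduplex, the strands of novel10 formed 17 base pairs at -20.10 kcal/mol, those of novel29 formed 16 at -23.20, those of novel412 formed 16 at -22.10 and those of novel18 formed 15 at -25.40. The paired stretch of novel29 left 1 base of the mature and 2 of the star strand free at their 3' ends. It left 1 and 1 in novel412, 3 and 3 in novel18, and 4 and 0 in novel10. Pairing began at base 2 of both strands in novel18 and at base 3 of the star strand in novel10. Some of their free 3' bases thus face free 5' bases and are not overhang. Dicer and Drosha products typically carry short free 3' ends on both strands. These foldings concern the strands alone, since no hairpin sequence was used. The bases 2 to 8 of novel10_star were also those of rno-miR-466b-2-3p in RefSeq.

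The other members, novel17_mature, novel342_mature, novel364_mature, novel371_mature, novel455_mature, novel360_mature and novel123_mature, had a mature row alone and 37 to 159 Intracellular counts. novel17_mature was at 4.89, 13.0 and 12.1 CPM inside cells, with 1, 0 and 1 EV counts. novel371_mature had 0, 12 and 45 Intracellular counts and 1, 3 and 0 EV counts, a ratio of 3.52 with an interval of 0.928 to 9.52. The rest had 1 or 2 EV counts each, with intervals of the ratio that held 1.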

How the data were processed

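The deposited counts, whole numbers per mature or star miRNA made by the authors, were the basis of all values. The TPM deposited by the authors are the same counts divided by the library total and multiplied by 1000000, without regard to length (largest difference 4.8e-05). Adapters were cut with cutadapt and the build was Rnor_6.0, per the submitters' processing notes. For the aligner, the predictor of miRNAs and the counter, the tools are not stated in these sources. Sequences of predicted rows came from the deposited table, for 107 of 519 rows.

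Members, lists and tests were chosen with earlier results of these data known. Depths were 81211 to 8859302 counts per library. All rows were fitted with edgeR 4.0.16 (TMM, filterByExpr, robust, 2-sided, no block) and checked on simulated data. DESeq2 1.42.0, other scalings, no filter, a block and each library left out were alternatives, as were other limits of the rule. Intervals are exact (95%). Duplexes came from RNAduplex 2.7.2.

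Named members were the 12 highest, those of precursors with both strands counted, those in all 3 EV libraries, and the 3 at each end of the ratio and of each limit. The remaining members named were chosen after their values were seen.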

Additional observations from a re-analysis of the deposited data

How the results depend on the processing

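The number of members was 56, 26 and 17 with a minimum of 20, 50 and 100 counts in place of 30. It was 21 to 39 without 1 library, lowest without Intracellular replicate 3, the deepest. The members called higher in EV numbered 1 to 2 without 1 library, against 63 to 91 of the 328 rows. Members called lower numbered 0 to 1 without 1 library, against 18 to 58 of the 328 rows. With no filter on low counts, 2 members (novel322_mature and novel527_mature) were called lower, against 71 of the 1071 rows fitted. The median log2 ratio of EV to Intracellular levels was -0.03 with a minimum of 100 counts and 0.45 to 0.97 without 1 library, where the bound for rows at 0 rises as EV depth falls. The median log2 ratio of lesser to greater strand was -1.37 in the 8 precursors with at least 10 counts of the lesser strand. With a replicate block 2 members were called higher and 0 lower. Libraries of the same number did not deviate together (r across rows of 0.03, 0.04 and 0.01). At the low depth of the EV libraries, this cannot tell whether libraries of the same number came from the same culture. Over all 328 rows the block gave 87 higher and 46 lower calls, against 83 and 56. Shares of counts moved by less than 1 SD under each alternative tried. EV depth limits all statements on the 23 members with under 3 counts due at their Intracellular level.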

Other observations

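Of the 107 predicted sequences at hand, 8 had the seed of a known row of the table, and 0 of these 8 were members. Without their first base and last 2 bases, 2 of the 107 lay within a RefSeq hairpin, on the same strand. One was novel98_mature, with 8 Intracellular and 0 EV counts, in Mir214, sharing the seed of rno-miR-214-3p. The other was novel339_mature, with 0 Intracellular and 3 EV counts, in Mir338, sharing the seed of rno-miR-338-3p. Both rows were below the limit of 30 counts.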
